A study of Chlamydomonas reinhardtii with 2 samples.

Results

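The loci described here are places on the numbered chromosome sequences of the green alga Chlamydomonas reinhardtii at which cDNA reads piled up without a single spliced read. They were chosen from the reads of the N-replete library as runs of overlapping best alignments with at least 10 reads, a median identity of at least 95% and no read that combined a splice direction with a gap of 20 or more bases. The rule gave 221 members out of 948 loci on sequences 1 to 17 that met the limits on reads and identity (23.3%, exact 95% interval 20.7 to 26.1). In all, 14103 loci were formed by the reads. The other 727 loci under the same limits held at least 1 spliced read and are called spliced loci below. Because read number, identity and splicing chose the members, these values describe them and are not findings.

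The study sequenced cDNA, primed at the poly(A) tails in total RNA, from strain dw15.1 (genotype cw15, nit2, mt+), which lacks a normal cell wall and carries a mutation in a regulator of nitrate assimilation. Cells at 5000000 per mL in acetate-containing TAP medium with 10 mM ammonium, under continuous light, were divided and kept for 48 hours in 50 mL of fresh medium with ammonium (N-replete) or lacking nitrogen (N-deprived). A single sample (1 biological replicate) stood for each condition, and only the N-replete library is analysed here, so there is no replicate error and no comparison of conditions. Intervals are exact Clopper-Pearson 95% intervals for shares and order-statistic intervals for medians, and they cover counting error only. Loci are not replicates, so no test was run between members and spliced loci.

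Most nuclear genes of Chlamydomonas are interrupted by several introns, which the spliceosome removes before the messenger RNA leaves the nucleus. A stretch of genome that is expressed without any spliced read can be a gene without introns, a copy made from a spliced messenger by reverse transcription, a transcript of a repeat, or a long exon of a spliced gene, often the last one with its 3' untranslated region, whose introns lie outside the covered stretch. The SMART method used here primes cDNA at the poly(A) tail and adds an adapter when reverse transcription reaches the cap end, so a cDNA carries a different added sequence at each end. These added bases do not align to the genome. They tell the 5' from the 3' end, and therefore the direction of an unspliced transcript.

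The oligonucleotide that started cDNA synthesis is shown because cDNA synthesis adds it at the 3' ends. The 3' ends below were called only from the number of unaligned leading bases, and the primer sequence was not matched to reads. It is printed without its last 2 degenerate bases, and the capitals mark the T-rich stretch of 25 bases that pairs with the poly(A) tail.
cDNA synthesis primer: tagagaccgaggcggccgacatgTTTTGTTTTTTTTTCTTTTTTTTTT
With the degenerate bases the primer has 50 bases, and 23 of the 25 capital letters are T. Reads against the transcript that began at a 3' end most often started with 50 unaligned bases, as described below.

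The members held 10960 reads, 4.91% (interval 4.82 to 4.996) of the 223396 reads with 1 best place, out of 239585 aligned reads in the library. They held 11.3% (interval 11.1 to 11.5) of the 97367 reads in loci that met the limits. A single member, on sequence 6, held 3993 of the 10960 reads. The median member had 14 reads (interval 13 to 16, quartiles 11 and 22), and 151 of the 221 had 10 to 19. Members were therefore mostly thinly covered. Among loci with 10 to 19 reads, 40.8% (interval 35.8 to 46.0, 151 of 370) had no spliced read. With 20 to 49 reads the share was 17.8% (interval 13.4 to 23.1, 46 of 258). With at least 50 and fewer than 200 reads it was 8.04% (interval 4.83 to 12.4, 18 of 224), and with 200 or more reads 6.25% (interval 2.33 to 13.1, 6 of 96). The share of loci without a spliced read was thus lower in each deeper class, and 24 members had at least 50 reads.

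**Figure D1:**
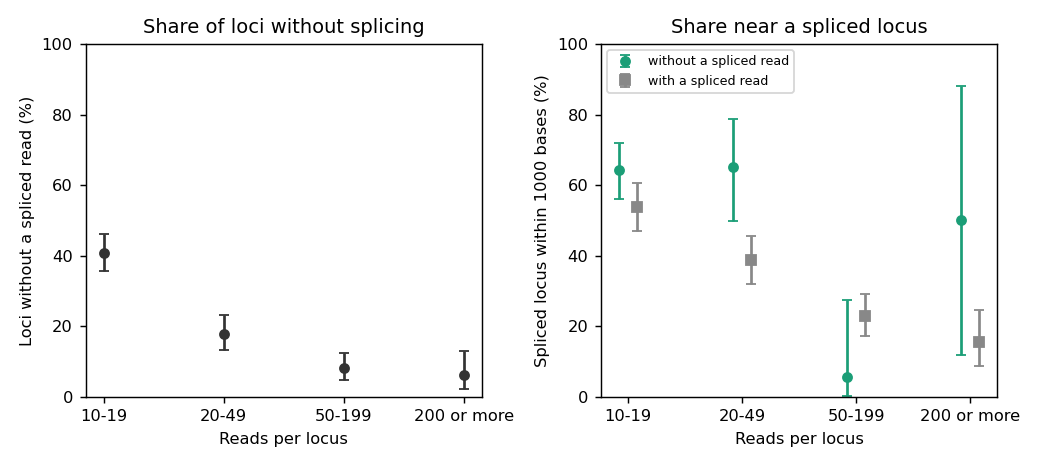
Left, percent of loci without a spliced read (y axis) in 4 classes of reads per locus (x axis); right, percent of loci with a spliced locus within 1000 bases, for loci without (circles) and with (squares) spliced reads. Bars are exact 95% intervals. The left share falls from 40.8% to 6.25%, and on the right the circles stand at 64.2% and 65.2% in the classes under 50 reads and at 5.56% and 50% above, where few loci remain.

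Members were short. Their median span on the genome was 672 bases (interval 627 to 715, quartiles 514 and 862), against 2023 bases (interval 1920 to 2104) for spliced loci, whose span includes introns. In the class of 10 to 19 reads the medians were 620 and 1459 bases, and in the class from 50 to below 200 reads they were 885 and 2499.5 bases. Spans of members ran from 12 to 1677 bases. Alignment quality was alike, with a median identity of 99% in both sets and a median aligned share of a read of 97.5% in members and 98% in spliced loci. Reads came from both strands at nearly every member. A median of 38.9% (interval 36.4 to 40) of a member's reads lay on its rarer strand, and 5 members had reads on 1 strand only.

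Members fell into 4 kinds by span and by the nearest spliced locus, a division made after the values were seen. For this purpose any locus with at least 1 spliced read counted as a neighbour, whatever its number of reads. A total of 118 members lay within 1000 bases of such a neighbour on its downstream side, 13 lay as near on another side, 82 had none within 1000 bases, and 8 spanned at most 100 bases.

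**Figure D2:**
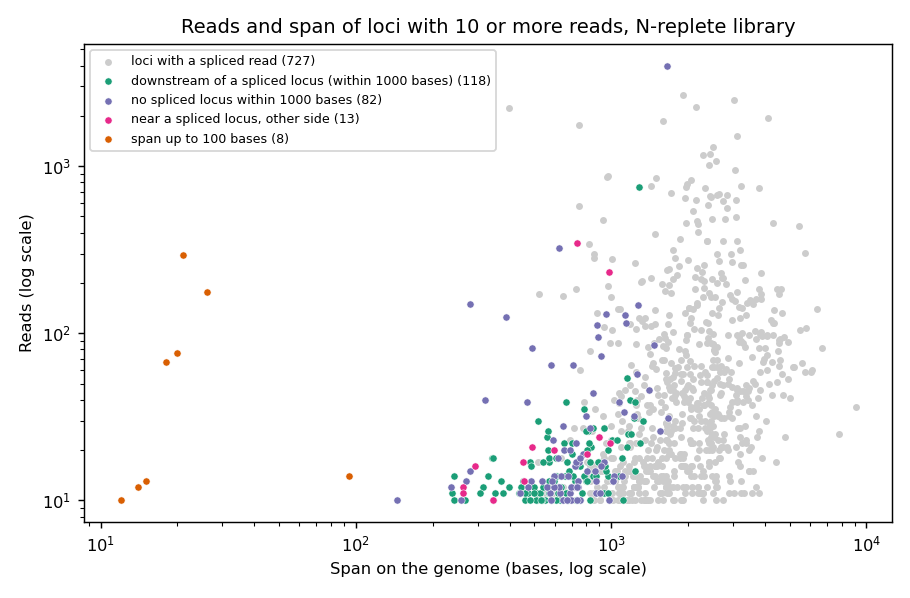
Each point is a locus on sequences 1 to 17, with its span in bases (x axis, log scale) and its reads (y axis, log scale). Grey points are the 727 spliced loci and coloured points the 221 members by kind; the 8 narrow members stand apart at 12 to 94 bases, and the member with 3993 reads is the highest point.

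Thinly covered members often had a spliced locus close by, mostly with the member on its downstream side. A spliced locus was found within 1000 bases of 131 of the 221 members (59.3%, interval 52.5 to 65.8). Over all 948 loci that met the limits the figure was 41.4%, and among the 727 spliced loci it was 35.9% (interval 32.4 to 39.5). These sets differ in depth. With 10 to 19 reads, 64.2% of members (interval 56.0 to 71.9) and 53.9% of spliced loci (interval 47.0 to 60.6) had such a neighbour, and these intervals overlap. With 20 to 49 reads the shares were 65.2% (interval 49.8 to 78.6) and 38.7% (interval 32.1 to 45.6). From 50 to below 200 reads the order was the opposite, with 1 of 18 members (5.56%, interval 0.141 to 27.3) and 47 of 206 spliced loci (22.8%, interval 17.3 to 29.2). With 200 or more reads it was 3 of 6 members and 14 of 90 spliced loci (15.6%, interval 8.77 to 24.7). Of the 130 members whose neighbour had a splice direction, 118 lay downstream of it and 12 upstream (90.8% downstream, interval 84.4 to 95.1). Over all 948 loci, 28.4% lay downstream of a spliced locus within 1000 bases, against 118 of the 221 members. Among spliced loci near another spliced locus, 151 of 261 lay downstream (57.9%, interval 51.6 to 63.9). A spliced locus could itself be a neighbour, which a member could not. A pair of spliced loci of the same direction within the limits, each nearest to the other, therefore counted once on each side. The 57.9% and the 90.8% are thus not like measures. The counts for members depended on the limits. Where a neighbour needed at least 10 reads, 51 of the 221 members had one within 1000 bases. With a minimum of 20 reads per member, 34 of 70 had a neighbour. With loci joined across up to 100 bases, 86 of 190 did. With a minimum of 50 reads, 4 of 24 did, and 50% of these lay downstream. The distance between a downstream member and its neighbour had a median of 184.5 bases (interval 71 to 253) and ran from 1 to 1000 bases.

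**Figure D3:**
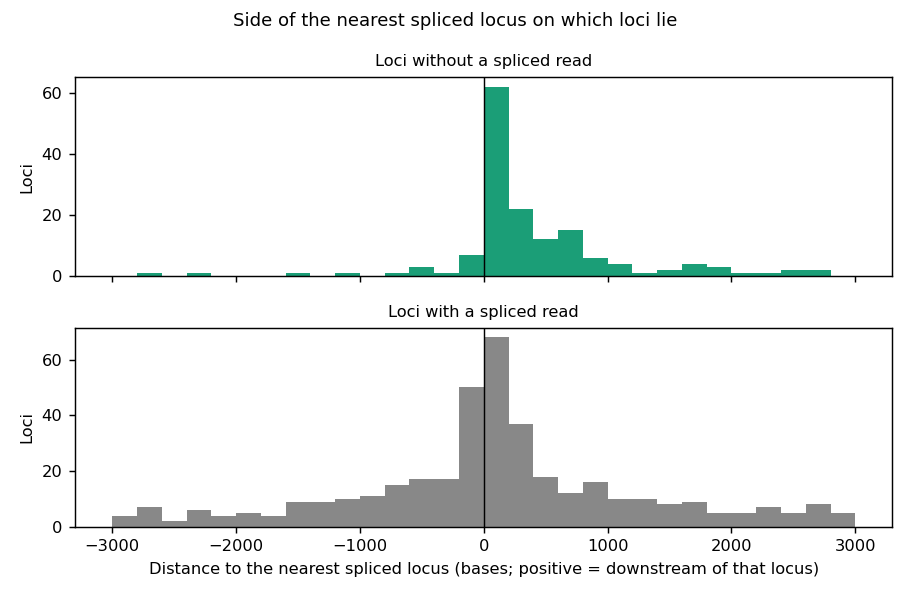
Number of loci (y axis) by distance in bases to the nearest spliced locus (x axis, bins of 200 bases), positive where the locus lies downstream of that neighbour. Members (top) gather just downstream of zero, with 118 downstream and 12 upstream within 1000 bases, while spliced loci (bottom) lie on both sides, with 151 and 110. Spliced loci can be each other's neighbour and then count on both sides, which members cannot.

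The ends of the cDNAs divided between members and their neighbours. Reads with 34 to 44 unaligned leading bases were taken as 5' end reads and those with 45 to 57 as 3' end reads. Along the splice direction of the neighbour, the 118 downstream members had 445 reads of the 3' kind and 125 of the 5' kind (78.1% of the 3' kind, interval 74.4 to 81.4). Without the 2 that had 50 or more reads, the numbers were 336 and 54 (86.2%, interval 82.3 to 89.4). Their neighbours showed the reverse, with 10 reads of the 3' kind and 154 of the 5' kind (6.10% of the 3' kind, interval 2.96 to 10.9). At such places 3' ends were thus read mostly in the unspliced locus. Reads of the 5' kind were more evenly divided, with 154 in the neighbours and 125 in the 118 members. Of the 125, 54 lay in members with fewer than 50 reads. With tied reads kept, the share of the 3' kind in downstream members was 35.6%, and 1 locus decided this. It lay on sequence 14 at 4027759 to 4032133, where tied reads joined loci into 1 of 7109 reads with 699 reads of the 5' kind and 26 of the 3' kind, and without it the share was 77.4% (interval 73.7 to 80.9). Of all 617 end reads of the downstream members, 570 ran in the direction of the neighbour (92.4%). In spliced loci downstream of a spliced locus, 1119 of 2293 end reads did so (48.8%, interval 46.7 to 50.9), and 671 of these 1119 were of the 3' kind.

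Counted by locus, 99 downstream members had more end reads in 1 direction than in the other, and in 96 of them that direction was the neighbour's (97.0%, interval 91.4 to 99.4). By the same measure, spliced loci downstream of another spliced locus had its direction in 79 of 115 cases (68.7%, interval 59.4 to 77.0). Of the members upstream of their neighbour, 7 of 11 had its direction (63.6%, interval 30.8 to 89.1). The neighbours were shallow themselves. They had a median of 6 reads (interval 5 to 8) over a median span of 1109.5 bases, 79 of the 118 had fewer than 10 reads, and 28 rested on 1 spliced read. No read with a best place there joined a member to its neighbour, since that would have made them 1 locus. Whether each couple is 1 transcript was not tested.

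The counterpart is the set of 82 members without a spliced locus within 1000 bases. They had 878 end reads of the 3' kind and 750 of the 5' kind along their more frequent direction (53.9% of the 3' kind, interval 51.5 to 56.4). Without the member on sequence 6 the numbers were 462 and 475 (49.3%, interval 46.1 to 52.6). Restricted to the 66 of them with fewer than 50 reads, the share was 52.4% (interval 46.7 to 58.0), against 86.4% (interval 82.6 to 89.7) in the 116 downstream members with fewer than 50 reads counted the same way. The pooled share covers members that differed among themselves. Of the 82, 60 had a 3' end read and 49 a 5' end read along their more frequent direction, 43 had more of the 3' kind, 25 had more of the 5' kind, and 10 had both ends placed. Of the 24 members with at least 50 reads, 4 had a spliced locus within 1000 bases (16.7%, interval 4.74 to 37.4), against 127 of the 197 members with fewer reads (64.5%, interval 57.4 to 71.1). The share also fell with depth in spliced loci, as given by class above.

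The direction of a member could be called when at least 10 end reads existed and at least 90% of them ran 1 way. This held for 30 of the 221 members (13.6%, interval 9.35 to 18.8), beside 31.1% of all 948 loci. Fewer members had enough end reads, since 38 members and 341 spliced loci had 10 end reads at all. Among these, the direction was called in 30 of 38 members (78.9%, interval 62.7 to 90.4) and in 265 of 341 spliced loci (77.7%, interval 72.9 to 82.0). Once ends were sampled, a member was given a direction about as often as a spliced locus.

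In the 27 directed members wider than 100 bases, 3376 reads ran along the transcript and 3602 against it. Of the reads along it, 821 began with 20 or more unaligned bases, most often 40 bases. Of the reads against it, 1068 did so, most often 50 bases. A further peak at 35 bases along the transcript, with 186 reads, came almost wholly from the member on sequence 6, which gave 176 of them. That member had 3 reads with 40 leading bases, while the others together had 191 at 40 and 10 at 35. Reads along the transcript thus most often began with fewer unaligned bases on sequence 6 than in the other members together. The windows were set in an earlier description of spliced loci of the same library, and the direction of each member was called from reads inside them.

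**Figure D4:**
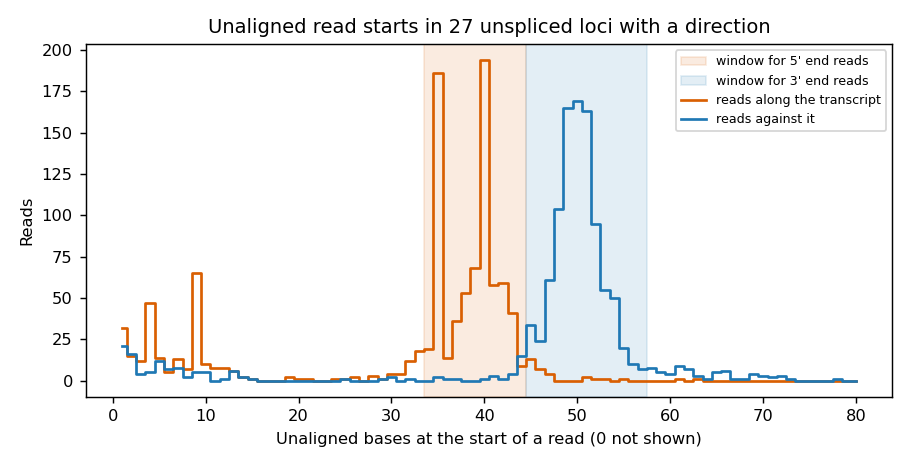
Number of reads (y axis) by the number of unaligned bases at the read start (x axis, from 1 to 80) in the 27 directed members wider than 100 bases, for reads along (orange) and against (blue) the transcript; shading marks both windows. Reads along the transcript peak at 35 and 40 bases and reads against it at 49 to 51.

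For 13 members both ends could be placed, each by at least 10 end reads (5.88%, interval 3.17 to 9.85), beside 16.6% of all 948 loci. In these, different reads marked a 5' and a 3' end, and no read was spliced. A cDNA length given here and below is the distance between the commonest 5' and 3' positions. Whether both ends belong to the same molecule was not tested. When any gap of 20 or more bases disqualified a locus, whatever its direction, 9 of the 13 remained. In all 13, the cDNA length between the commonest ends had a median of 860 bases (interval 695 to 1135) and ran from 364 to 1279. In the 144 spliced loci with both ends, the aligned bases between the ends had a median of 1073 (interval 923 to 1169) over a genome distance of 2044 bases. Every base between the ends was covered in these 13 members, with the lowest depth at 3 reads on sequence 8 at 2817125. Loci are runs of overlapping alignments, so this unbroken coverage follows from the rule, apart from gaps within reads. The 3' ends were placed within 5 bases of the commonest position in a median of 98.9% of 3' end reads, and the 5' ends in 81.8%. In spliced loci with both ends the medians were 93.1% and 80.3%. Coverage summed to similar amounts on both sides of the midpoint in most of them, with a median of 50.8% (interval 48.8 to 52.0) on the 3' side of the midpoint between the ends, and a range from 39.1% on sequence 17 at 3122827 to 55.0% on sequence 6. Depth still varied within a cDNA, from 230 to 809 reads on sequence 6 and from 5 to 31 on sequence 17 at 3122827.

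The member with the most reads, on sequence 6 at 7308780 to 7310439, had 1913 plus and 2080 minus reads. By its end reads the cDNA was plus-stranded, from 7308911 to 7310174, with a length of 1264 bases, and rested on 275 reads of the 5' kind and 416 of the 3' kind. Of its 3993 reads, 3949 had another listed place, and 3870 were also listed on the sequence named NA, and 1347 tied reads overlapped it without being counted. The locus began 131 bases before the commonest 5' end. At the other side it went on for 265 bases past the commonest 3' end. In that stretch 84 reads lay wholly beyond the end, and 93 crossed it with more than 10 bases on each side. It stood 39635 bases from the nearest spliced locus.

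On sequence 13 at 2675631 to 2676919, 747 reads gave a plus-strand cDNA of 1279 bases, the longest among members with both ends. It had 361 plus and 386 minus reads, with 71 reads of the 5' kind, most often at 2675635, and 94 of the 3' kind, most often at 2676913. Only 11 of its reads had another place. A spliced plus-strand locus with 52 reads ended 660 bases before it and had 9 reads of the 3' kind and 7 of the 5' kind of its own. This downstream member and its neighbour thus each showed both kinds of end, unlike the downstream members as a group.

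Another 2 well-covered members lay head to head with a spliced locus. On sequence 17 at 4971913 to 4972650, 345 reads gave a minus-strand cDNA of 715 bases that began at 4972634, with 50 reads of the 5' kind and 76 of the 3' kind. A spliced plus-strand locus with 27 reads, 13 of them spliced, began 106 bases away. On sequence 2 at 1361211 to 1362189, 234 reads gave a plus-strand cDNA of 970 bases that began at 1361217, with 30 reads of the 5' kind and 42 of the 3' kind. A spliced minus-strand locus with 161 reads lay 98 bases away. In both places the 2 directions pointed away from each other.

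On sequence 7 at 6141041 to 6141666, 324 reads gave a minus-strand cDNA of 614 bases, with 65 reads of the 5' kind and 74 of the 3' kind. A compact member on sequence 8 at 3618331 to 3618716 had 125 reads and the shortest cDNA, 364 bases on the minus strand, with 51 and 33 end reads. Its neighbour with splicing was 12685 bases away, and none of its reads had another place. On sequence 12, the minus-strand cDNAs of 930 bases (1409368 to 1410319, 130 reads) and 1108 bases (7280806 to 7281940, 128 reads) stood 5360 and 72499 bases from spliced loci. On sequence 16 at 649559 to 650705, 115 reads gave a minus-strand cDNA of 1135 bases. Its 3' ends were spread more widely than in the other 12, with 68.8% within 5 bases of the commonest position. The remaining 4 members with both ends had 44 to 112 reads and cDNAs of 695 to 860 bases.

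**Figure D5:**
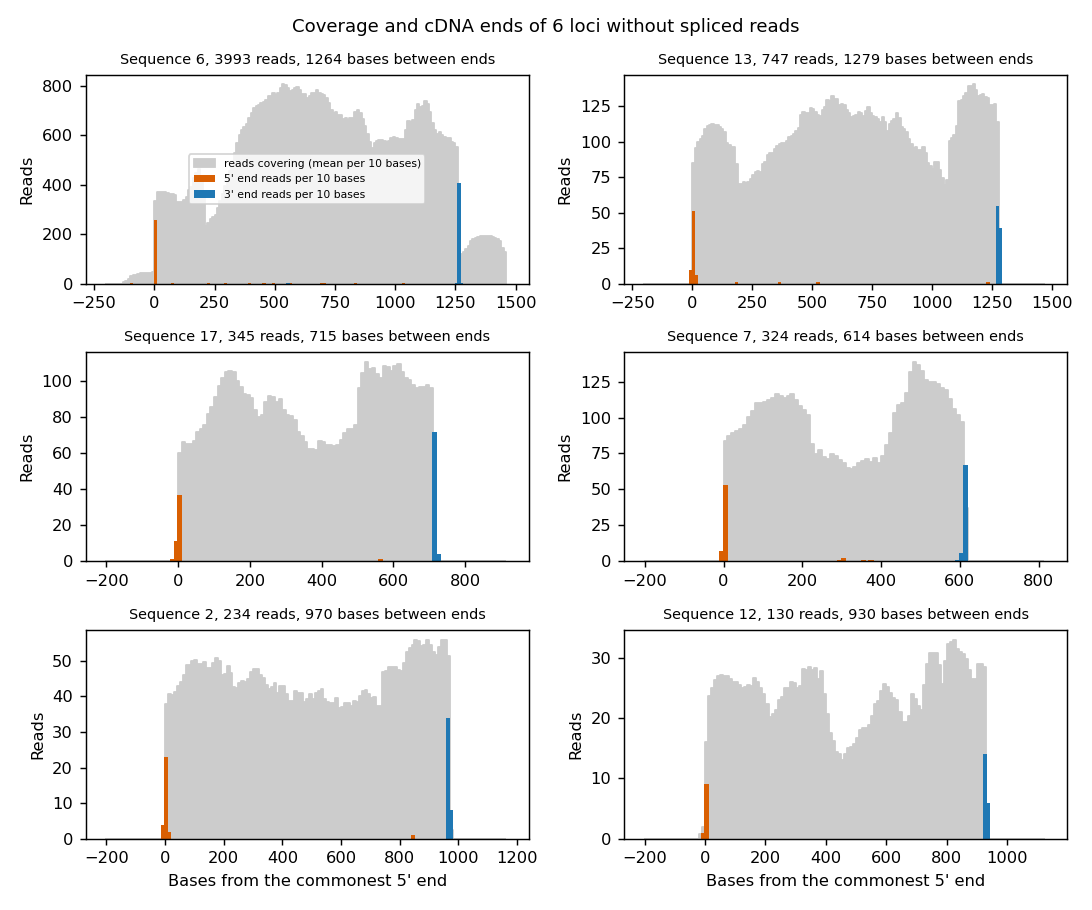
Reads covering each position (grey, mean per 10 bases) and 5' (orange) and 3' (blue) end reads per 10 bases, against bases from the commonest 5' end, in the 6 members with both ends that had the most reads. Coverage runs without a break from the 5' to the 3' ends, which follows from the rule for loci, apart from gaps within reads. On sequence 6 coverage also lies before the 5' end and goes on past the 3' end.

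Wide members without both ends differed in what was missing. On sequence 3 at 4648020 to 4649486, 85 reads spanned 1467 bases with 11 reads of the 5' kind and 8 of the 3' kind, all of minus direction, and 45.5% of the former lay within 5 bases of the commonest position. On sequence 10 at 2439541 to 2440801, 57 reads spanned 1261 bases and 10 end reads had plus and 2 minus direction. On sequence 12 at 6949120 to 6950271, 54 reads showed 15 ends of the 3' kind and none of the 5' kind. A spliced locus of the same minus-strand direction lay 8 bases upstream, with 47 reads, 10 ends of the 5' kind and none of the 3' kind. This is the best-covered example of the divided ends. Of the 54 reads of the member, 20 had another place, and 22 tied reads overlapped it without being counted.

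By the windows, end reads of both directions were counted in 8 members that had at least 10 end reads and no called direction. On sequence 9 at 2925525 to 2925804, 150 reads over 280 bases had 103 end reads of plus and 27 of minus direction. Among reads with at least 20 unaligned leading bases, 53 of 70 plus reads began at 2925526 and 40 of 67 minus reads at 2925804. The median number of leading bases was 40 in front of the plus reads and 47 in front of the minus reads, near the border between the windows, and 26 minus reads fell in the window of the 5' kind. On sequence 10 at 5512867 to 5513336, both strands began like 5' ends, with a median of 41 unaligned bases in front of the plus reads and 40 in front of the minus reads. Of these, 17 of 22 plus reads began at 5512867 and 6 of 13 minus reads at 5513333. On sequence 11 at 2450920 to 2452198, 148 reads spanned 1279 bases with 29 end reads of plus and 9 of minus direction. Its minus reads with at least 20 unaligned leading bases had a median of 47.5, also near the border. By the windows, each of these 3 members thus had end reads of both directions, in unequal numbers. At the members named next, reads of a single strand fell in both windows and so counted in both directions. On sequence 17 at 2223977 to 2224268, all 15 reads with at least 20 unaligned leading bases were minus reads, with 28 to 46 such bases. On sequence 9 at 3635808 to 3636042, all 10 were plus reads, with 38 to 46.

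The 8 narrow members stood apart in how little of each read aligned. They shared a short aligned stretch in a mostly unaligned read, with a median aligned share of 24.8% (range 16 to 44). On sequence 2 at 3126281 to 3126301, 296 reads with a median length of 58 bases aligned over a median of 15, all on the minus strand, at 12 distinct alignments and with a median of 17 places found. On sequence 2 at 8122487 to 8122512, 176 reads aligned over a median of 18 bases, 158 of them on the plus strand, and 130 of the reads started with 27 unaligned bases. On sequence 16 at 1371460 to 1371479, 76 reads aligned over a median of 13 bases, and on sequence 2 at 7581444 to 7581461, 67 reads aligned over a median of 17 bases. The other 4 had 10 to 14 reads. In 6 of the 8, more than 50% of the reads had another place. Whether these are transcripts was not tested, and they make up 664 of the 10960 reads.

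More than 50% of the reads had another place in 19 members (8.60%, interval 5.26 to 13.1), beside 3.38% of all 948 loci and 13 of the 727 spliced loci (1.79%, interval 0.955 to 3.04). Apart from the 6 narrow ones and the member on sequence 6, they included a member on sequence 8 at 4141064 to 4141553. All its 82 reads had another place, with a median of 4 places, and all 82 were also listed on sequence 14, and the median read was aligned over its whole length. It had 1 end read. On sequence 14, members at 4027759, 4031617 and 4106793 with 40, 30 and 13 reads had other places for every read. On sequence 9 at 2743038 to 2743683, 27 of 28 reads did. At least 1 read with another place was found in 93 members (42.1%, interval 35.5 to 48.9) and in 433 of the 727 spliced loci (59.6%, interval 55.9 to 63.2).

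Few reads of members were aligned with gaps. In 5 members 8 reads had a gap of 20 or more bases without a splice direction, and these gaps ran from 52 to 606 bases. They included members with both ends placed, on sequence 6 (3 reads), sequence 7 at 6141041 (2), sequence 13 at 2675631 (1) and sequence 16 at 649559 (1). Only 2 members had reads that were spliced at another place on the genome, 4 reads in all. Of these, 3 belonged to the member with both ends on sequence 12 at 7280806. The aligner was run with an intron limit of 1000 bases per the file headers, so longer introns would not be listed.

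Members were found on every numbered sequence. Their share of the loci that met the limits ran from 1 of 14 on sequence 15 (7.14%, interval 0.181 to 33.9) to 9 of 22 on sequence 8 (40.9%, interval 20.7 to 63.6). Sequence 2 had the most members, 29 of 111 loci (26.1%, interval 18.2 to 35.3). The intervals of these 3 sequences all include the share of 23.3% over all sequences. Within 1000 bases of another member lay 17 members.

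At the limits of the rule, 30 members had 10 reads and 52 unspliced loci just outside had 9. The widest of these were on sequence 1 at 3698221 to 3699329 (1109 bases, inside) and on sequence 10 at 4991037 to 4991942 (906 bases, outside). The lowest median identity inside was 95.95%, on sequence 1 at 9063623 to 9063938 with 12 reads. Of 12 unspliced loci below the limit, the nearest had 94.1%, on sequence 16 at 3410243 to 3410262 with 46 reads. A single spliced read kept 23 loci out, of which the one on sequence 4 at 1795253 to 1797481 had the most reads, 56.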

How the data were processed

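For the N-replete library the authors deposited the alignments of single reads, with aligned share and identity in percent. Per the file headers these came from GMAP, run with options that set 1000 bases as intron limits. The submitters' processing notes name GSNAP. No source used here names the genome build, so no gene was assigned. Reads per locus were counted here from the deposited alignments. PCR and size selection can change the abundance of a product.

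Each read was kept at the place where identity times aligned share was highest, and the read was dropped when a place that did not overlap scored within 0.1 points. At most 5 places are listed per read. Loci are runs of overlapping alignments on either strand. The distance to a neighbour is between facing borders, and its direction is the more frequent splice direction. With 1 library per group and no file of the N-deprived library analysed here, no test was run.

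The loci named are the 10 members with the most reads, the 5 with the longest cDNA, the 5 narrowest and the 5 widest with at least 50 reads, and those at the limits; others were named after their values were seen. The members and lists were chosen with earlier results of these data known, and the measures of neighbours after seeing the data. Code was tested on simulated records: 400 of 400 loci, 800 of 800 tied reads and 100 of 100 downstream loci were recovered, and all 349 directions called were right. Python 3.11.15, numpy 2.4.6, scipy 1.17.1, pandas 2.3.3 and matplotlib 3.10.9 were used.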

Additional observations from a re-analysis of the deposited data

Results flagged for a closer look

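A pair of results concern alignments that the counts of members do not use. Both were listed because they exceed a limit of 3. The rule itself sets such alignments aside and no count of 0 was predicted, so passing this limit is not a finding. On sequence 6 at 4072843 to 4073489, a member with 10 reads, 117 spliced alignments were listed that were not the best place of their read. Tied reads, which entered no locus, overlapped members 3289 times (a read counted once per member), at 24 of the 221 members.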

How the results depend on the processing

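No paired analysis was possible because 1 library was analysed. Of 230 values under 27 alternatives, 177 stayed near the reported ones, within 1.5 times for counts and within the 95% interval for shares and medians. The end windows were widened at their outer sides only, since they would otherwise overlap. Alternatives that join loci or change the neighbour, and all values on neighbours, were chosen after seeing the data. The causes were not tested, except that stricter limits leave fewer reads or loci by construction.

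With reads limited to 95% identity or more and 90% or more aligned, 118 members with 6384 reads remained (16.2% of loci, median span 793.5 bases, 30.5% with a read at another place, 69 near a spliced locus), and directions and both ends fell to 0, since that limit removes end reads. With a minimum of 20 reads there were 70 members (12.1% of loci, span 839 bases, 57.1% with another place, 43.6% on the rarer strand, 34 near). With 50 there were 24 (7.50%, 885 bases, 79.2%, 45.3%, 4 near), 17 directions, and 50% of those near lay downstream.

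Joining loci across up to 100, 500 and 1000 bases gave shares of 18.8%, 13.2% and 11.2% of loci, spans of 846, 1183.5 and 1332 bases, shares with another place of 49.5%, 53.3% and 60.9%, and 86, 26 and 0 members near a spliced locus; across 1000 bases there were 138 members. Member reads were 19737 with ties kept, 5770 when any gap disqualified and 6967 without the largest member. With 5 end reads, 68 members had a direction, and among reads with 1 alignment none had another place (0%). Members near numbered 70 within 200 bases and 51 with a neighbour of at least 10 reads.

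The share of 3' ends in downstream members, 78.1%, was 35.6% with ties kept (77.4% without the 1 locus on sequence 14 that ties joined), 82.9% with 1 alignment and with a margin of 1 point, 86.6% when any gap disqualified, 69.2% and 60.6% with minimums of 20 and 50 reads, 71.9% and 63.9% with joining across 100 and 500 bases, 89.9% and 88.6% for neighbours within 200 and 500 bases, and 73.8% for neighbours of at least 10 reads. Most members had 10 to 19 reads. An intron outside the covered stretch cannot be seen, and whether members have such introns was not tested.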
